A study of Rattus norvegicus with 16 samples.

Results

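Of the 41078 transcripts in the table of counts, 23 stood lower in neural stem cells kept for 12 h in stiff gels than in those kept in soft gels by a fixed rule on expression, and they are described here across all 16 libraries. A member had its level in each of the 4 stiff libraries at 12 h below its level in each of the 4 soft libraries, and a mean of at least 5 CPM (counts per 1000000 counts of the library) in the soft libraries. Its log2 ratio of mean CPM + 1, stiff over soft, was -0.6 or lower. The log2 ratio of 48 h over 12 h lay above -2 and below 1.5, so that transcripts that mostly vanished or surged with time were kept out. The members were thus chosen by the 12 h stiffness values, which are given as a description with no test. The time ratio was bounded by the rule and is treated the same way, whereas the comparison of stiff and soft gels at 48 h and those of gels with and without the RGD peptide were not used to choose them.

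The cells were adult rat hippocampal neural stem cells, progenitors that can form neurons and glia, and all of them were differentiating inside hyaluronic acid hydrogels in a medium that held retinoic acid (1 μM) and fetal bovine serum (1%). The 8 groups combined a soft (100 Pa) or a stiff (1.2 kPa) gel, a gel without RGD (a plain gel) or with it (an RGD gel), and 12 h or 48 h in the gel, with 2 libraries each. Libraries were made from 3′ tags of total RNA, in which a transcript gives reads near its 3′ end. The labels do not say whether the 2 libraries of a group came from separate cultures, and the p-values then reflect the spread among these libraries alone, which may be technical. In bulk samples, fewer cells of a type and less RNA per cell cannot be told apart.

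A cell inside a gel pulls on the material around it through adhesion receptors and the contractile actin skeleton, and a stiffer gel resists that pull more. Stiffness is known to bias the choice of neural stem cells between neurons and glia in culture. RGD is a short peptide motif of fibronectin and other matrix proteins to which integrin receptors bind, while hyaluronic acid itself is bound by the receptor CD44. Retinoic acid, which acts through nuclear receptors, and serum both push such progenitors out of self-renewal.

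The table names its rows by versioned Ensembl transcript identifiers. None of them could be paired with a gene symbol from the sources used here (0 matches in a table of 47357 rat genes), so the functions of the members, their sequences and the marker genes of the cells are not described. Identifiers are given for at most a few members of each comparison, and the others as counts and ranges. Where isoforms share reads, the values of the members are uncertain for that reason.

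Total counts were 1829779 to 2157015 in the soft and 2294844 to 3420786 in the stiff libraries at 12 h, and 2403144 to 2816114 and 2035890 to 2926954 at 48 h. Depth therefore moved with stiffness at 12 h, while the ranges overlapped at 48 h. The 2 most abundant transcripts of the table took 50.8 to 55.2% of the counts of the soft and 45.6 to 51.9% of those of the stiff libraries at 12 h. By CPM, the median transcript of the 7876 tested was 0.13 higher in stiff gels on the log2 scale at 12 h. With the 2 most abundant transcripts left out of the column totals, that shift was 0.0269. The members were lower in stiff gels at 12 h by the rule. Most members were sparse. The median count of a member in a library was 26.5 in soft and 20.5 in stiff libraries at 12 h, and 15 of the 92 stiff values were under 10 counts, against 4 of 92 soft values.

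At 12 h the 23 members had a median log2 ratio of -0.75, stiff over soft, with a range of -1.18 to -0.61. Of all tested transcripts, 1.61% had their 4 stiff libraries below their 4 soft libraries at 12 h and 1.36% had a log2 ratio of -0.6 or lower. Both are parts of the rule. In the other direction, 9.36% of all tested transcripts had their 4 stiff libraries above their 4 soft libraries at 12 h. The members spanned a wide range of levels, with soft means from 5.92 to 2857 CPM and a median of 14.5 CPM. In 10 of them the soft mean was under 10 CPM, and in 9 it was 20 CPM or more.

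The geometric mean of CPM + 1 over the members summarises a library in a single value. It was 20.3 to 21.9 in the 4 soft libraries and 11.0 to 12.6 in the 4 stiff libraries at 12 h. Over the 6451 transcripts with 5 CPM or more in soft gels at 12 h it was 28.4 to 31.8 in the soft and 30.9 to 36.0 in the stiff libraries. Those ranges overlapped between the gels, whereas the rule itself sets the members low in the stiff libraries at 12 h. The contrast is thus no result of its own. At 48 h the geometric mean over the members was 16.8 to 21.3 in soft and 16.1 to 20.7 in stiff libraries, and the 2 gels overlapped.

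**Figure D1:**
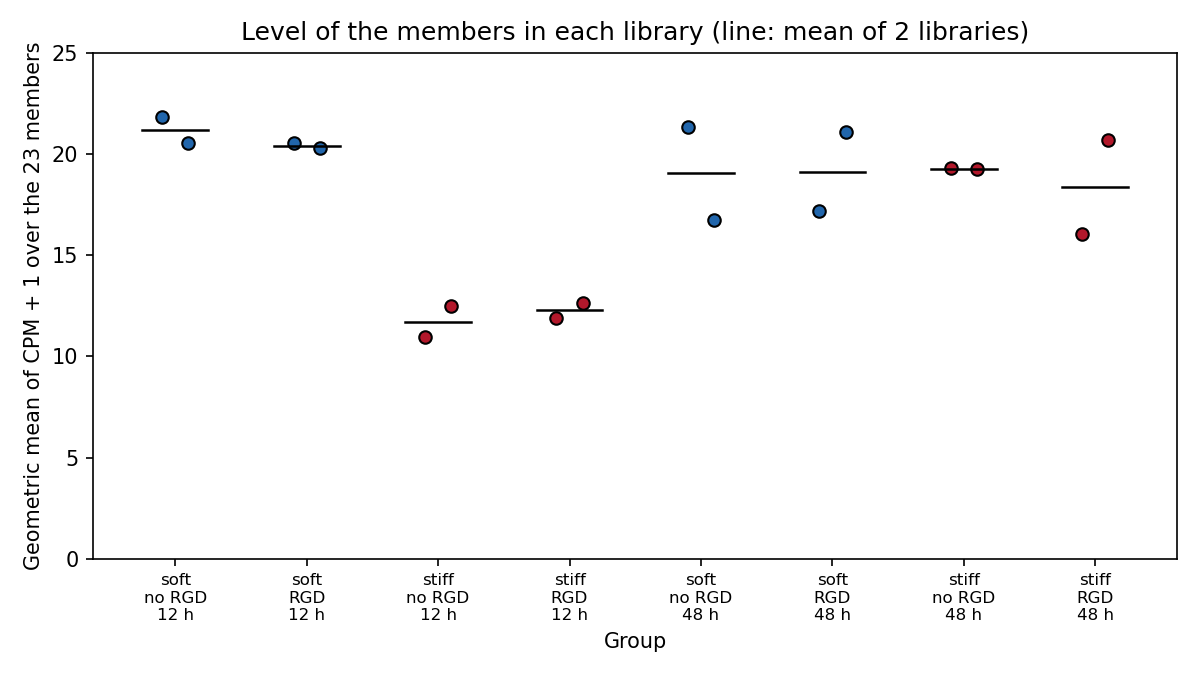
The geometric mean of CPM + 1 over the 23 members (vertical axis) is shown for each library (points) of the 8 groups (horizontal axis), with the mean of 2 libraries as a line and soft gels in blue, stiff gels in red. At 12 h the stiff libraries lie at 11.0 to 12.6 and the soft ones at 20.3 to 21.9, as the rule that chose the members requires, while at 48 h the groups overlap.

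The lowest ratio was that of ENSRNOT00000077799.1, a transcript of low abundance. Its level at 12 h was 6.49 and 9.36 CPM in soft plain gels, 7.11 and 6.22 CPM in soft RGD gels, 3.49 and 0 CPM in stiff plain gels, and 2.75 and 4.39 CPM in stiff RGD gels. The means were 7.29 ± 1.43 CPM (soft) against 2.66 ± 1.89 CPM (stiff; SD, n = 4 each), from 60 and 30 counts. The library with 0 counts of 2529499 allows a level of up to 1.19 CPM, counting error only. Its log2 ratio was -1.70 without RGD, where that library lies, and -0.75 with RGD.

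ENSRNOT00000028315.6 had the next lowest ratio, -1.08, on a firmer base of 340 counts in soft and 202 in stiff libraries. Its level at 12 h was 37.5 and 37.9 CPM in soft plain gels and 48.6 and 42.6 CPM in those with RGD. In stiff gels it was 17.0 and 17.8 CPM in plain and 29.9 and 12.3 CPM in RGD gels. The ratio was close in both, -1.07 without and -1.08 with RGD, and the stiff library nearest to the soft ones was RGD replicate 1.

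The most abundant member was ENSRNOT00000030919.5, which is described because of its level, after its values were seen. It held 82.6 to 93.3% of the counts of all members and 0.123 to 0.827% of all counts of a library. At 12 h it stood at 2999 and 2759 CPM in soft plain gels, 2413 and 3259 CPM in soft RGD gels, 1228 and 2408 CPM in stiff plain gels, and 1462 and 1631 CPM in stiff RGD gels. The highest stiff library, plain replicate 2, lay just under the lowest soft library, RGD replicate 1. Because of this transcript, sums over the members would describe it alone, and the geometric mean is used instead.

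The separation of the groups at 12 h was narrow for some members. The lowest soft library exceeded the highest stiff library by a factor of 1.12 in the median member, and by 1.6 at most, in ENSRNOT00000073967.1. In 7 of the 23 the gap was under 5%. At the edge of the rule, ENSRNOT00000027774.4 was just inside with a log2 ratio of -0.61 (8.62 ± 1.10 CPM soft against 5.31 ± 0.722 CPM stiff; SD, n = 4 each). ENSRNOT00000071305.2 was just outside with -0.58 (39.4 ± 4.79 and 26.1 ± 7.20 CPM; SD, n = 4 each). The bounds on time kept out 1 transcript, ENSRNOT00000003686.7, which had means of 8.26 (soft) and 4.17 CPM (stiff) at 12 h and a time ratio of 1.76. How many transcripts met the rule depended on the scaling and on single libraries. With CPM scaled by TMM factors, which remove the shift of the median transcript, 69 did, and they contained all 23. With all libraries thinned at random to 1829779 counts 22 did, 15 of them among the 23, and with a 12 h library left out 28 to 60 did.

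The difference was present in gels without and with RGD. All 23 members had a lower mean in stiff gels in either condition, as non-overlap of all 4 libraries requires. The median log2 ratio was -0.83 without RGD, with a range of -1.70 to -0.46, and -0.77 with RGD, with a range of -1.08 to -0.22. In 12 members it was the larger with RGD and in the other 11 without. ENSRNOT00000035567.6 had the widest split, -1.51 without and -0.22 with RGD, from 52 counts in soft and 35 in stiff libraries.

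**Figure D2:**
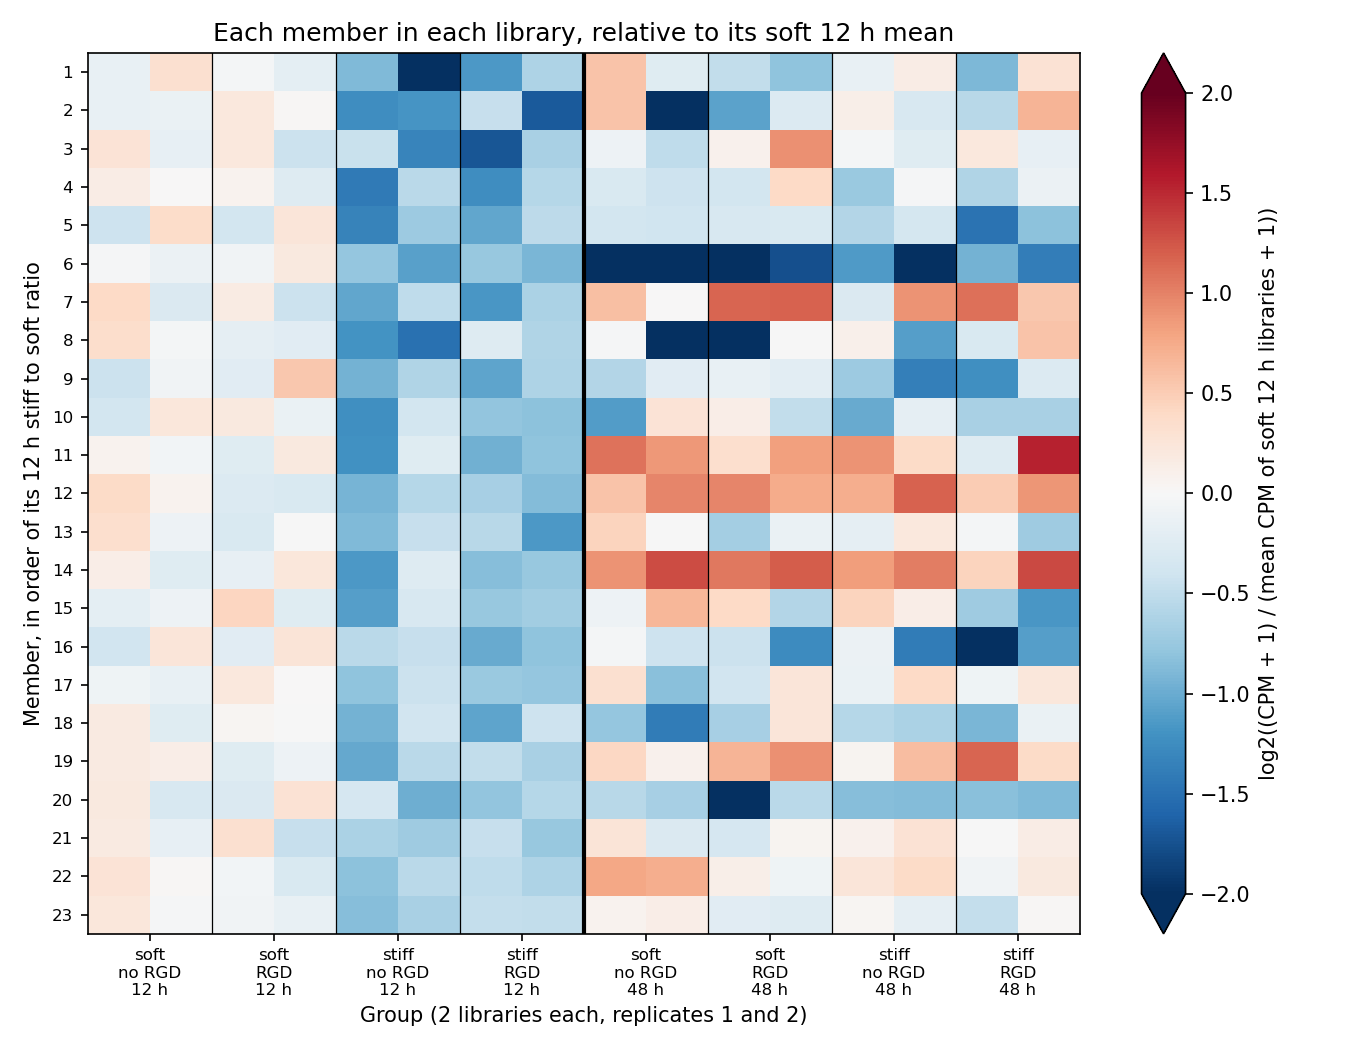
Each row is 1 of the 23 members in order of its 12 h ratio and each column 1 of the 16 libraries, coloured by log2((CPM + 1) / (mean CPM in soft gels at 12 h + 1)) from blue (lower) to red (higher), with colours saturated beyond -2 and 2. The 4 stiff columns at 12 h are blue or pale throughout, as the rule requires, and at 48 h the values of soft and stiff columns overlap in each row.

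The 48 h libraries were used to ask whether the same transcripts were still lower in stiff gels at the later time, in libraries whose stiffness the rule had not used. No member had its 4 stiff libraries below its 4 soft libraries at 48 h, where 0.99% of all tested transcripts did. None had them above, where 1.26% did. At shares this low, 0 of the 23 is near that of all tested transcripts and is not a result about the members. The separation at 12 h was required by the rule, so its absence at 48 h does not measure a loss with time. The mean of CPM was lower in stiff gels in 14 of the 23 and higher in 9, against 48.4% lower among all tested transcripts. The median log2 ratio of CPM + 1 was -0.08, with a range of -0.56 to 0.87, beside a median of 0.01 over all tested transcripts. On this scale of CPM + 1, none of the 23 reached the -0.6 used at 12 h, and 1.3% of all tested transcripts did. That is again near the share over all. In all 23 the 48 h ratio was smaller in size than the 12 h ratio, but the 12 h values were chosen for being low, which by itself widens that gap.

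All 23 members had enough counts to be tested. The quasi-likelihood test of edgeR compared the 4 stiff with the 4 soft libraries at 48 h, with the spread estimated over all 16 libraries and p-values adjusted by Benjamini-Hochberg over all tested transcripts. It called 0 of the 23 and 0 of the 7876 tested transcripts, 0% of them. That outcome depended on single libraries: without soft plain replicate 1 at 48 h, 66 transcripts were called, among them 1 member, ENSRNOT00000028315.6, which was then higher in stiff gels. Without stiff RGD replicate 2 at 48 h 9 transcripts were called and without soft RGD replicate 2 at 48 h 4, with 0 members among them. At an unadjusted p under 0.05 it had 1 member, which was higher in stiff gels, and 577 transcripts in all (7.33%). DESeq2 and limma-voom also called 0 members, with 1 and 3 at an unadjusted p under 0.05, and called 1 and 2 transcripts in all. The median edgeR log2 fold change of the members was -0.07, with 13 lower and 10 higher, and the smallest adjusted p among them was 0.558.

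The precision of the 48 h values differed between members, with an approximate SE of 0.157 to 0.587 on the log2 scale. These fold changes use TMM factors, whereas the -0.6 of the rule is a ratio of CPM + 1, so the 2 scales differ. For 9 of the 23 the edgeR fold change minus 2 SE lay above -0.6, so a fold change of -0.6 was outside that interval at 48 h. By DESeq2 this held for 6 of the 23 and by limma-voom for 11. With a library left out this held for 6 (without soft RGD replicate 1) to 13 (without stiff RGD replicate 1) of the 23. With all libraries, the interval of the other 14 held -0.6, and a difference of that size could not be told from none at this depth and spread.

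**Figure D3:**
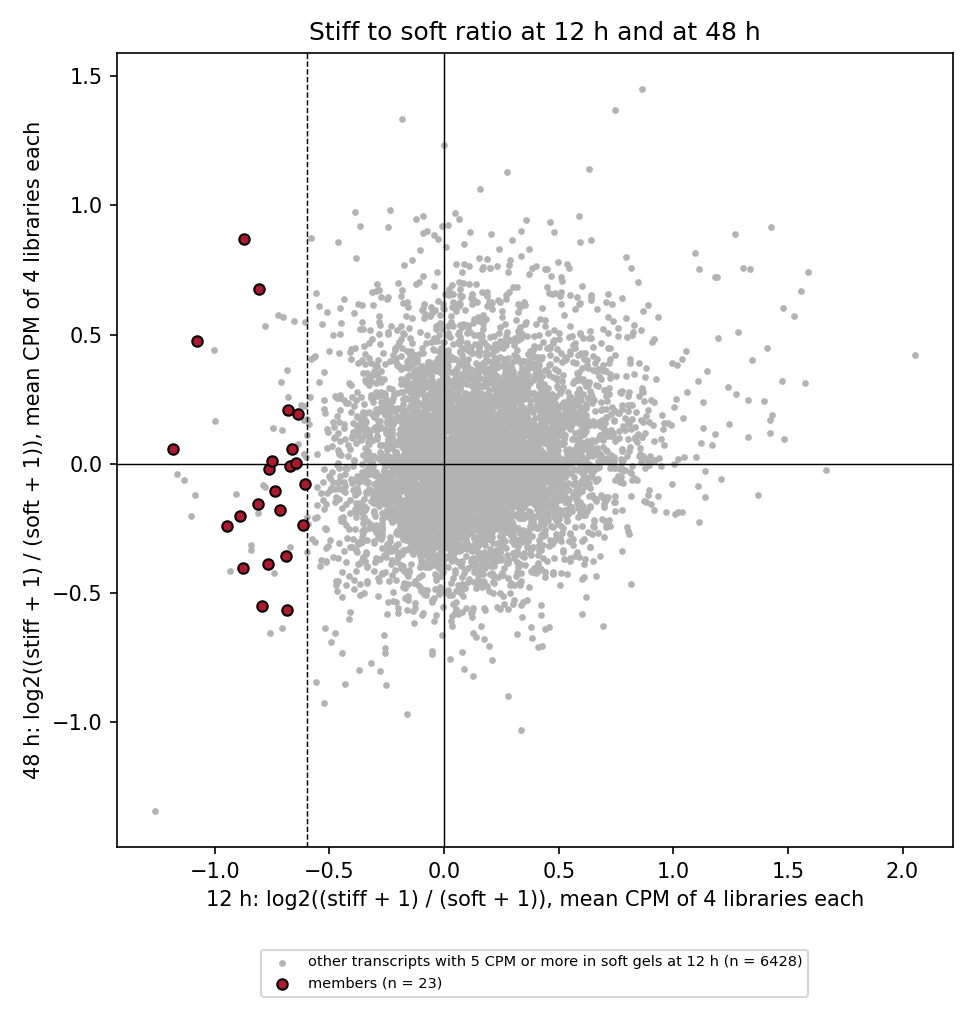
The log2 ratio of mean CPM + 1 in stiff over soft gels at 12 h (horizontal axis) is plotted against that at 48 h (vertical axis) for the 23 members (red) and the other transcripts with 5 CPM or more in soft gels at 12 h (grey), with the threshold of -0.6 dashed. The members lie left of the dashed line by the rule, and spread from -0.56 to 0.87 at 48 h with a median of -0.08.

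Among the members, ENSRNOT00000083652.1 and ENSRNOT00000017174.5 had the lowest fold changes at 48 h. ENSRNOT00000083652.1 stood at 3.64 and 4.97 CPM in soft plain gels, 5.29 and 4.99 CPM in soft RGD gels, 3.22 and 1.71 CPM in stiff plain gels, and 1.97 and 4.75 CPM in stiff RGD gels. Soft plain replicate 1 and stiff RGD replicate 2 overlapped the other group. Its log2 fold change was -0.69 ± 0.43 (SE, edgeR adjusted p = 0.743), from 80 counts over the 8 libraries at 48 h. It was -1.09 without stiff RGD replicate 2 and -0.43 without stiff plain replicate 2.

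ENSRNOT00000017174.5 stood at 22.6 and 17.0 CPM in soft plain gels, 17.0 and 9.16 CPM in soft RGD gels, 21.4 and 8.20 CPM in stiff plain gels, and 3.44 and 10.2 CPM in stiff RGD gels. The groups overlapped, and the lowest value was that of stiff RGD replicate 1. The log2 fold change was -0.65 ± 0.35 (SE, edgeR adjusted p = 0.692). With a library left out it ranged from -1.17 (without stiff RGD replicate 2) to -0.33 (without stiff plain replicate 2).

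The highest fold changes at 48 h were those of ENSRNOT00000073967.1 and ENSRNOT00000035567.6, which had been lower in stiff gels at 12 h. ENSRNOT00000073967.1 stood at 2.92 and 2.13 CPM in soft plain gels, 3.02 and 4.58 CPM in soft RGD gels, 7.65 and 3.76 CPM in stiff plain gels, and 8.84 and 6.21 CPM in stiff RGD gels. Only soft RGD replicate 2 and stiff plain replicate 2 overlapped. The means were 3.16 ± 1.02 CPM (soft) against 6.62 ± 2.19 CPM (stiff; SD, n = 4 each), a log2 fold change of 1.05 ± 0.36 (SE) that did not pass (edgeR adjusted p = 0.558).

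At 12 h the same transcript had been 17.9 ± 1.87 CPM (soft) against 9.30 ± 1.06 CPM (stiff; SD, n = 4 each). Its means thus differed in opposite directions at the 2 times. The difference between the times was not tested, because the 12 h values chose the members.

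ENSRNOT00000035567.6 stood at 6.20 and 0.355 CPM in soft plain gels, 0.756 and 6.24 CPM in soft RGD gels, 6.85 and 2.39 CPM in stiff plain gels, and 4.91 and 9.86 CPM in stiff RGD gels at 48 h. It had the widest spread of all members at 48 h, 8.02-fold between the highest and the lowest library on the CPM + 1 scale. The log2 fold change was 0.79 ± 0.59 (SE, edgeR adjusted p = 0.786), and 2 of the soft libraries held 1 and 2 counts. With a library left out it ranged from 0.27 (without stiff plain replicate 1) to 2.35 (without soft plain replicate 1, edgeR adjusted p = 0.106), and limma-voom gave 1.43. The median member spread 2.61-fold over the 8 libraries at 48 h, and the median of all tested transcripts 2.03-fold.

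ENSRNOT00000028315.6, second at 12 h, also varied between replicates at 48 h. It stood at 62.7 and 8.17 CPM in soft plain gels, 19.3 and 34.1 CPM in soft RGD gels, 45.5 and 33.1 CPM in stiff plain gels, and 28.0 and 67.6 CPM in stiff RGD gels. Its 2 lowest libraries, soft plain replicate 2 and soft RGD replicate 1, were also the 2 lowest for ENSRNOT00000035567.6. The log2 fold change was 0.48 ± 0.57 (SE, edgeR adjusted p = 0.891). Without soft plain replicate 1, the soft library at 62.7 CPM, it was 1.60 ± 0.35 (SE) and passed (edgeR adjusted p = 0.0439), in a fit that takes the lone library left in that group to vary like the other groups. Without soft plain replicate 2, the library at 8.17 CPM, it was 0.06, and limma-voom gave 0.81 with all libraries.

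The abundant ENSRNOT00000030919.5 stood at 6070 and 5211 CPM in soft plain gels, 3611 and 5063 CPM in soft RGD gels, 5325 and 3708 CPM in stiff plain gels, and 2385 and 8269 CPM in stiff RGD gels. The lowest and the highest value were those of the 2 stiff libraries with RGD. The means of 4989 ± 1021 CPM (soft) against 4922 ± 2535 CPM (stiff; SD, n = 4 each) did not differ beyond that spread, with a log2 fold change of -0.01 ± 0.36 (SE, edgeR adjusted p = 0.998). It was 0.30 without stiff RGD replicate 1 and -0.58 without stiff RGD replicate 2.

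**Figure D4:**
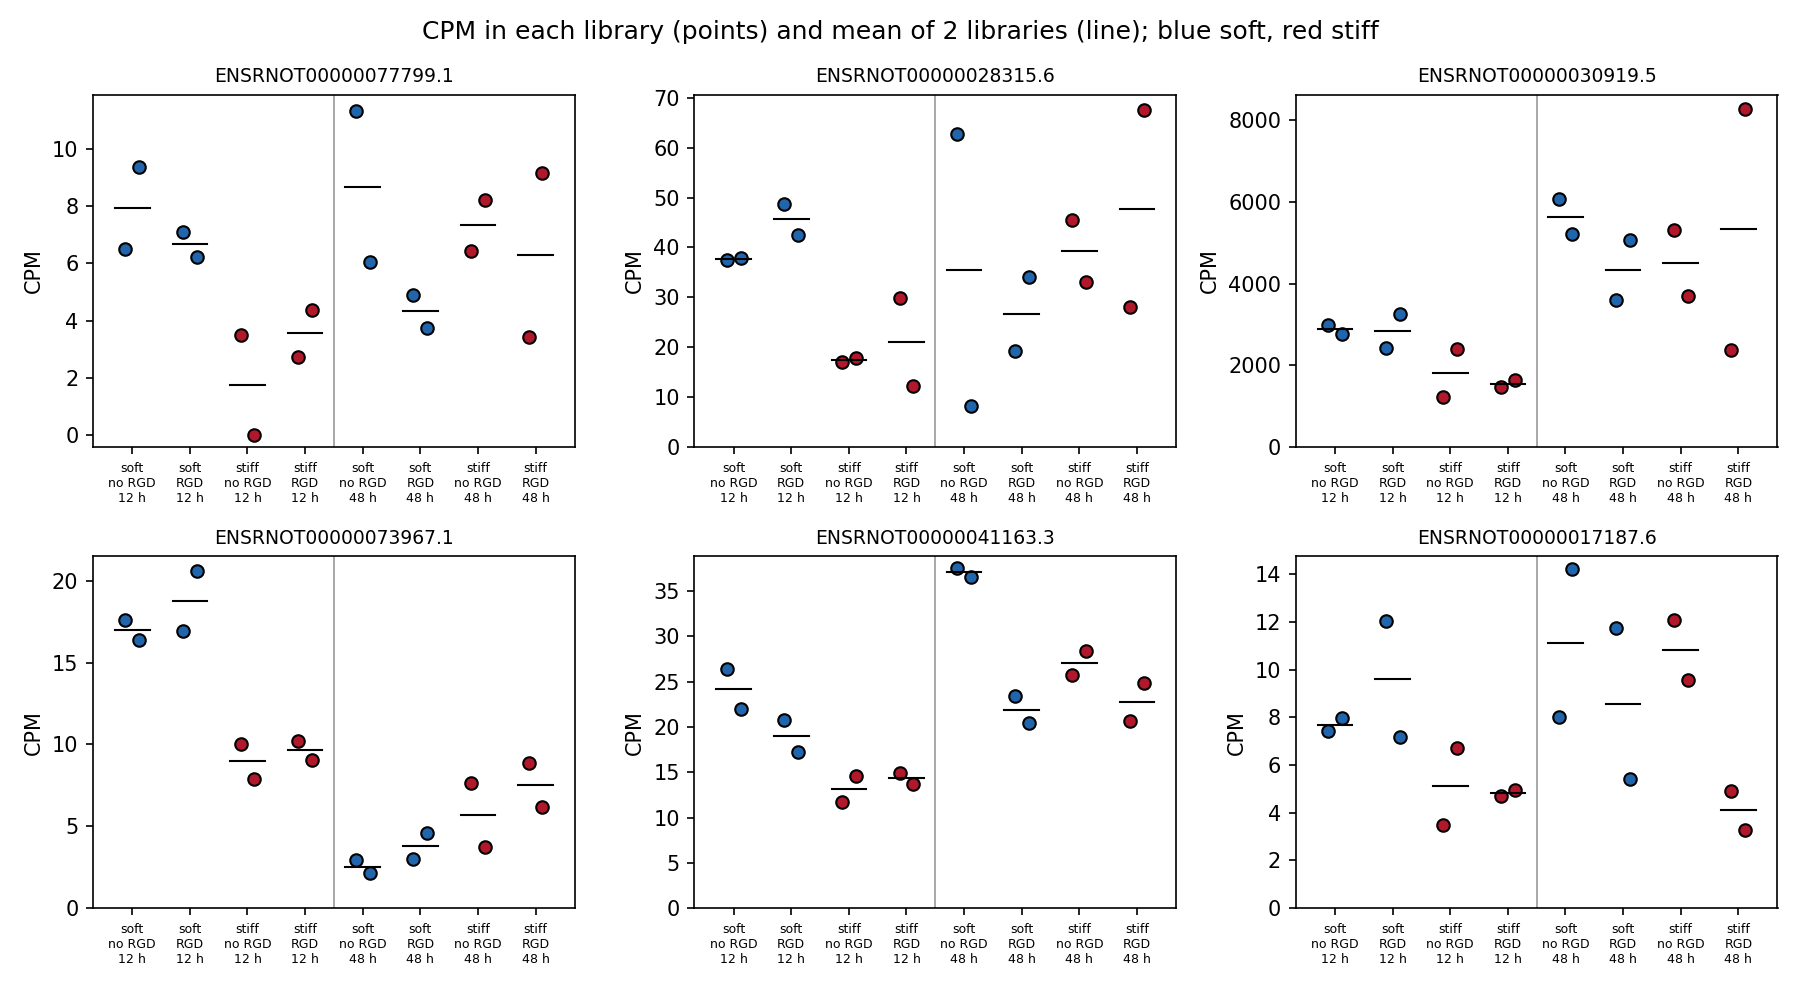
CPM (vertical axes, linear) of 6 members is shown in each library (points) of the 8 groups (horizontal axes), with the mean of 2 libraries as a line, soft gels in blue and stiff gels in red, and 12 h left of the grey line. The red points lie under the blue points at 12 h in each panel by the rule, and at 48 h the colours mix in all 6 panels, while ENSRNOT00000041163.3 shows its 2 highest libraries in soft plain gels at 48 h.

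Taken apart by RGD, the 48 h ratio had no shared direction. Without RGD the members had a median log2 ratio of -0.03, with 12 lower and 11 higher in stiff gels, and with RGD a median of 0.03, with 11 lower and 12 higher. In 6 members the ratio was lower in both conditions and in 6 it was higher in both. Among all tested transcripts 29.3% were lower in both. The interaction of stiffness with RGD at 48 h was called for 0 members and 0 transcripts (0%) by edgeR, DESeq2 and limma-voom, and 0 members had an unadjusted p under 0.05 by any of the 3. By edgeR 154 transcripts did (1.96%). In simulated data, the edgeR test of this interaction recovered 0% of 1.5-fold and 4.17% of 2-fold changes. The absence of calls therefore cannot tell no interaction from one of that size.

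RGD moved no member past the threshold at 12 h. EdgeR, DESeq2 and limma-voom called 0 of the 23 members and 0 of all tested transcripts (0%). No member had an unadjusted p under 0.05 by any of the 3, against 249 transcripts (3.16%) by edgeR. No member had its 4 RGD libraries all above or all below the 4 plain libraries, as 1.08% and 0.901% of all tested transcripts did. Non-overlap of soft and stiff libraries limits how far RGD could spread a member at 12 h, so this comparison is not wholly free of the rule. In simulated data, the edgeR test of RGD at 12 h recovered 22.4% of 1.5-fold and 59.6% of 2-fold changes. The absence of calls therefore does not show that RGD had no effect on the members. The edgeR log2 fold changes, RGD over no RGD, ranged from -0.30 to 0.41 with a median of -0.01, and 13 were lower and 10 higher.

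The lowest were those of ENSRNOT00000021381.5 (-0.30 ± 0.18, SE) and ENSRNOT00000010303.5 (-0.28 ± 0.32, SE), and the highest those of ENSRNOT00000077799.1 (0.41 ± 0.50, SE) and ENSRNOT00000035567.6 (0.39 ± 0.62, SE). Their edgeR adjusted p was 1.00 in each case, and the fold change of ENSRNOT00000077799.1 was -0.11 without stiff plain replicate 2, its library of 0 counts, and 2.94 without stiff plain replicate 1. That of ENSRNOT00000010303.5 was -0.40 to -0.15 with a library left out (-0.15 without stiff plain replicate 2). ENSRNOT00000021381.5 stood at 38.5 and 30.9 CPM in soft plain gels and 24.1 and 23.4 CPM in those with RGD, and in stiff gels at 14.8 and 19.4 CPM (plain) and 18.1 and 15.5 CPM (RGD). The libraries with RGD were lower in soft gels, and the stiff libraries overlapped.

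At 48 h RGD also gave no call among the members, with more spread between them. EdgeR called 0 of the 23, and 4 of the 7876 tested transcripts (0.0508%). The number of transcripts called moved with single libraries, from 1 to 120 with a library left out. It was 120 without soft RGD replicate 1, 107 without soft plain replicate 2, 74 without stiff RGD replicate 1 and 62 without stiff plain replicate 2 at 48 h, and 213 with no filter on low counts, with 0 members among them each time. Its log2 fold changes ranged from -0.95 to 0.60 with a median of -0.14, 15 lower and 8 higher with RGD. At an unadjusted p under 0.05 it had 6 members, 4 lower and 2 higher, and 1191 transcripts in all (15.1%). DESeq2 called 0 members, gave 12 of them no adjusted p and called 52 transcripts, and limma-voom called 0 members and 4 transcripts, with 4 and 6 members at an unadjusted p under 0.05. In simulated data, the edgeR test of RGD at 48 h recovered 20.4% of 1.5-fold and 69.5% of 2-fold changes, so changes of that size could be missed. The smallest edgeR adjusted p of a member was 0.16.

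That smallest value belonged to ENSRNOT00000041163.3, which is named for it after its values were seen. It was the only member whose 4 libraries with RGD all lay below the 4 without at 48 h, as 2.49% of all tested transcripts did, and 0 members had them above, as 2.77% did. It stood at 37.5 and 36.6 CPM in soft plain gels, 23.4 and 20.4 CPM in soft RGD gels, 25.8 and 28.4 CPM in stiff plain gels, and 20.6 and 24.8 CPM in stiff RGD gels. Its 2 highest libraries were those of the soft gel without RGD, and the stiff libraries with and without RGD differed by less. The log2 fold change was -0.56 ± 0.18 (SE).

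The lowest fold changes for RGD at 48 h were those of ENSRNOT00000017187.6 (-0.95 ± 0.33, SE, edgeR adjusted p = 0.173) and ENSRNOT00000017174.5 (-0.89 ± 0.35, SE, edgeR adjusted p = 0.234). ENSRNOT00000017187.6 stood at 8.02 and 14.2 CPM in soft plain gels, 11.7 and 5.41 CPM in soft RGD gels, 12.1 and 9.57 CPM in stiff plain gels, and 4.91 and 3.29 CPM in stiff RGD gels. The stiff libraries with RGD were its lowest at 48 h, and the soft libraries overlapped. The fold change of ENSRNOT00000017174.5 was -0.40 without stiff plain replicate 1 and -1.40 without stiff RGD replicate 2. The highest were those of ENSRNOT00000006459.5 (0.60 ± 0.25, SE, edgeR adjusted p = 0.255) and ENSRNOT00000002656.7 (0.56 ± 0.35, SE, edgeR adjusted p = 0.452). With a library left out, these ranged from 0.40 to 0.91 (highest without stiff plain replicate 2) and from 0.26 to 0.82 (lowest without soft RGD replicate 2).

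ENSRNOT00000006459.5 stood at 22.6 and 14.6 CPM in soft plain gels, 33.6 and 34.1 CPM in soft RGD gels, 11.7 and 28.0 CPM in stiff plain gels, and 32.4 and 21.6 CPM in stiff RGD gels. In soft gels both libraries with RGD were above both without, and in stiff gels they overlapped.

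**Figure D5:**
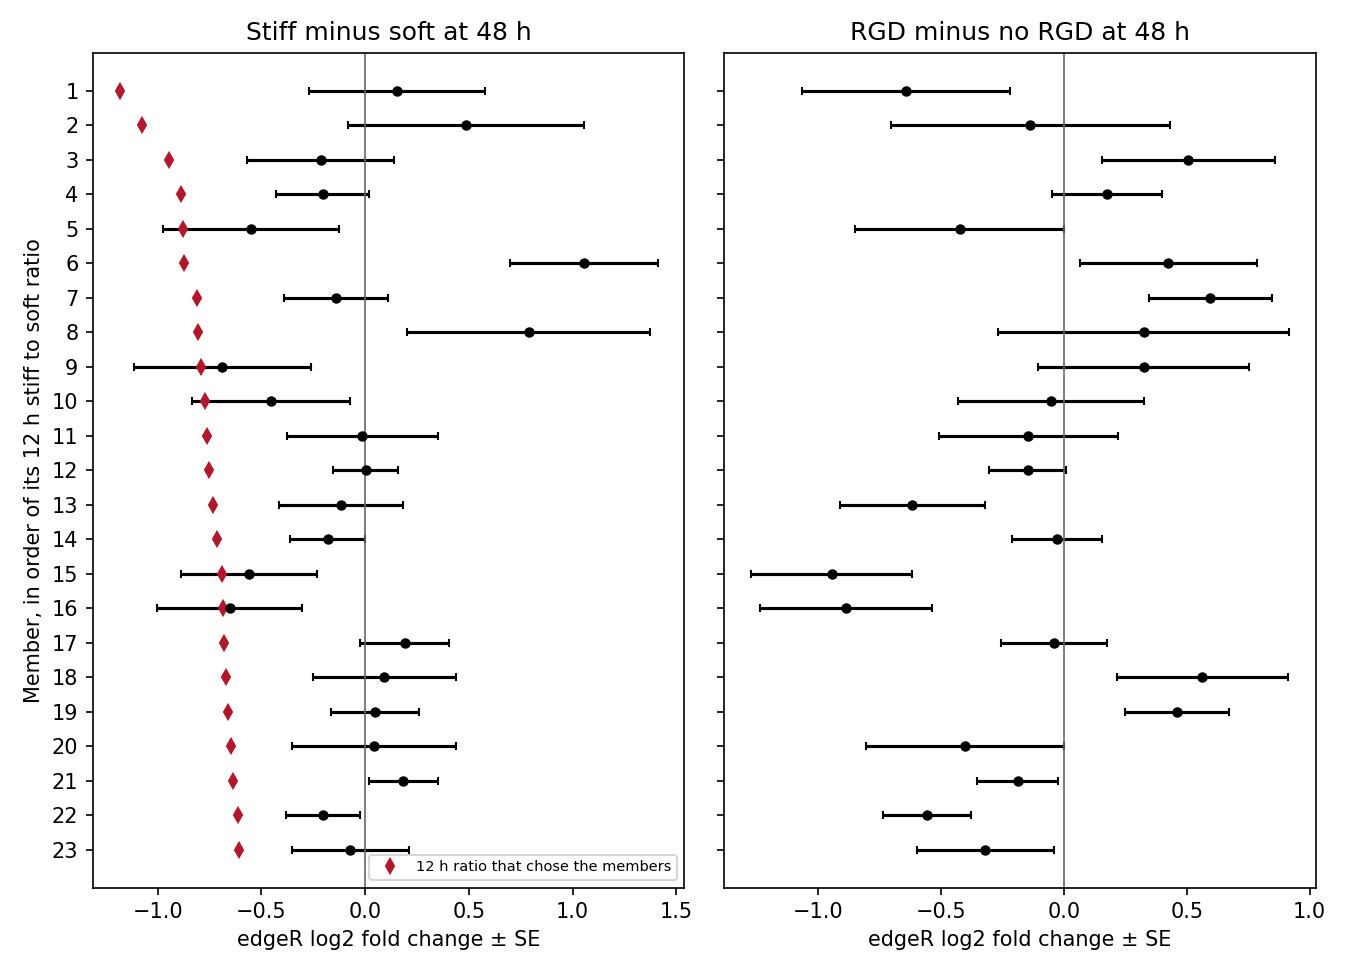
The edgeR log2 fold change ± SE at 48 h (horizontal axes) of stiff over soft gels (left) and of gels with over gels without RGD (right) is shown for the 23 members (vertical axis, in order of the 12 h ratio), with the 12 h log2 ratio of CPM + 1 that chose them as red diamonds. None of the points passed an adjusted p of 0.05, and the points on the left spread from -0.69 to 1.05 around 0.

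Time is described without a test. Over all libraries the members had a median log2 ratio of 0.28, 48 h over 12 h, with 15 higher and 8 lower at 48 h, beside a median of -0.03 over all tested transcripts. In stiff gels 19 of the 23 had a higher mean at 48 h and the median log2 ratio was 0.75. In soft gels 8 had a higher mean and the median was -0.09. Medians over all tested transcripts were -0.09 in stiff and 0.04 in soft gels. In 11 members the mean was higher at 48 h in stiff and lower in soft gels, in 8 it was higher in both, and in 4 it was lower in both. The ratio was larger in stiff than in soft gels in all 23, against 35.9% of all tested transcripts. Both time ratios contain the 12 h values that chose the members, so the gap between them is not a result of its own.

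The level of a member was lowest in a stiff group at 12 h, of the 8 group means, for 16 of the 23, and in a group at 48 h for the other 7. It was highest in a group at 48 h for 15 and in a soft group at 12 h for the other 8. The rule puts the stiff means below the soft means at 12 h. A soft group at 12 h thus could not be lowest, nor a stiff group at 12 h highest. These counts are in part set by the rule and are no result of their own. Only 2 members had all 8 libraries at 48 h above all 8 at 12 h, as 3.38% of all tested transcripts did, and none had them below, as 5% did. These were ENSRNOT00000022341.4 and ENSRNOT00000021381.5, which also had the 2 highest time ratios.

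ENSRNOT00000022341.4 had a time ratio of 1.35. Its 12 h range was 36.5 to 51.2 CPM over the soft and 19.2 to 36.4 CPM over the stiff libraries. The rule requires these to lie apart, and the gap was a factor of 1.003. Its 48 h range was 81.6 to 109 CPM over the soft and 59.9 to 110 CPM over the stiff libraries, which overlapped. The means at 48 h were 95.9 ± 12.0 CPM (soft) against 84.6 ± 21.1 CPM (stiff; SD, n = 4 each). Because the rule set the separation at 12 h, the overlap at 48 h does not measure a loss with time.

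ENSRNOT00000021381.5 had a time ratio of 1.16 and means at 48 h of 52.7 ± 7.15 CPM (soft) against 53.2 ± 10.8 CPM (stiff; SD, n = 4 each). Its log2 fold change for stiffness at 48 h was 0.00 ± 0.16 (SE), the smallest SE of the members. At 12 h its means had been 29.2 ± 7.04 and 16.9 ± 2.14 CPM (SD, n = 4 each).

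The lowest time ratios were those of ENSRNOT00000073967.1 (-1.31) and ENSRNOT00000009752.5 (-0.57). The mean of ENSRNOT00000073967.1 at 48 h was lower in soft than in stiff gels, a difference that did not pass (edgeR adjusted p = 0.558). Its log2 time ratios were -2.18 in soft and -0.44 in stiff gels, and both contain the 12 h values that chose it. ENSRNOT00000009752.5 stood at 9.56 ± 2.32 (soft) and 5.75 ± 1.33 CPM (stiff) at 12 h, and at 4.81 ± 2.47 and 4.82 ± 0.0709 CPM at 48 h (SD, n = 4 each), where 1 soft library (RGD replicate 1) stood at 1.13 CPM and the other 3 at 5.68 to 6.24 CPM.

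Replicates of a group differed in most members the same way in some groups. In soft plain gels at 48 h, 17 of the 23 were higher in replicate 1 than in replicate 2. Among all tested transcripts it was 42%. In soft and in stiff RGD gels at 48 h, 8 of the 23 were, against 55.9% and 49.9% of all tested transcripts. In stiff plain gels at 48 h it was 11 of the 23, against 29.6%. At 12 h it was 6 of the 23 in stiff plain gels (45.5% of all tested transcripts) and 11 in stiff RGD gels (73.1%). In soft gels at 12 h it was 16 without RGD (65.4%) and 14 with RGD (58.6%). The median difference between the replicates of a group at 48 h, in size on the log2 scale, was 0.408 to 0.567 for the members and 0.334 to 0.4 for all tested transcripts. At 12 h it was 0.225 to 0.495 for the members, highest in stiff plain gels, and 0.285 to 0.304 for all tested transcripts. The part of these library differences in the 12 h ratios and in the 48 h comparisons was not tested.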

How the data were processed

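The authors deposited raw whole-number counts per transcript for 16 libraries of 3′ tags, not normalized. HISAT2 2.1.0, HTSeq, FastQC and the rat build rn6 are named in the submitters' processing notes. Not given in the sources used here are the annotation, the counting mode, strand and molecular identifiers, and counting limits cover counting error only. All columns matched a sample by title. The members and the rule for naming them were chosen with earlier results of these data known.

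CPM values and ratios (pseudocount 1) used column totals. Tests used edgeR 4.0.16 in R 4.3.3, with TMM factors (0.893 to 1.18), a filter on low counts (minimum 10, total 15), which kept 7876 transcripts, and a robust quasi-likelihood model with 8 group means over all libraries. P-values were adjusted by Benjamini-Hochberg over all tested transcripts, with a threshold of 0.05. SE was the fold change over the root of F, an approximation. The fit was tested on simulated data. The rule for naming allowed, per comparison, at most the 2 highest and 2 lowest members, and those beside the rule's threshold. Others were named after their values were seen. These were ENSRNOT00000030919.5 for its level and ENSRNOT00000041163.3 for its p-value for RGD at 48 h. ENSRNOT00000028315.6 at 48 h and ENSRNOT00000007505.2 were named for what they showed with a library left out. Alternatives were RLE factors, DESeq2 1.42.0, limma-voom (limma 3.58.1), other filters, a fit of 1 time, a replicate block, leaving out each library, and other settings of the rule.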

Additional observations from a re-analysis of the deposited data

Results flagged for a closer look

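Among 68 checks of the 4 libraries of 1 gel and time, for 16 members named in the text and the geometric mean, 2 had a library far from the other 3. Chance flags about 1 in 20 such groups. ENSRNOT00000009752.5 stood at 1.13 CPM in soft RGD replicate 1 at 48 h and at 5.68 to 6.24 CPM in the other soft libraries at 48 h. ENSRNOT00000017187.6 stood at 12.0 CPM in soft RGD replicate 1 at 12 h and at 7.18 to 7.95 CPM in the other soft libraries at 12 h.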

How the results depend on the processing

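The counts of members called lower in stiff gels at 48 h, and of members called in either direction for RGD at 12 h, RGD at 48 h and stiffness by RGD at 48 h, were 0 under each of 7 other settings and with each of the 16 libraries left out. That includes the replicate block, which gave 0 in each. Not all of the 23 could be called each time. With a filter of 10 CPM or more in 2 libraries only 16 of the 23 were tested, and DESeq2 gave 12 no adjusted p for RGD at 48 h. The exception is a call in the other direction: ENSRNOT00000028315.6 was called higher in stiff gels at 48 h without soft plain replicate 1 (1.60, edgeR adjusted p = 0.0439). Transcripts called in all for stiffness at 48 h were 0 to 66 with a library left out and 24 with no filter on low counts, against 0, and for RGD at 48 h 1 to 120 and 213, against 4. The labels do not say whether replicate numbers pair libraries of different groups. Between groups, the differences of replicate 2 from replicate 1 correlated across 2403 transcripts with r = -0.41 to 0.39 (median 0.03). The correlation was above 0.1 in 8 of 28 pairs of groups. No pairing common to all groups was seen, but this check cannot exclude one shared by some groups. Among the comparisons without a call, the smallest adjusted p of a member was 0.0623 for RGD at 48 h without a filter on low counts (edgeR). The median fold change at 48 h was -0.171 to 0.0666 with a library left out, and above 0 without soft plain replicate 1 at 48 h (0.059) or soft RGD replicate 2 at 48 h (0.0666). The number of members with stiff below soft libraries at 48 h was 0 to 1 with a library left out. It was 1 without soft plain replicate 1 or stiff RGD replicate 2 (ENSRNOT00000083652.1), soft RGD replicate 1 (ENSRNOT00000009752.5) or stiff plain replicate 2 (ENSRNOT00000007505.2).

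The number of members depended on the rule. It was 69 with TMM-scaled CPM and 73 with totals that leave out the 2 most abundant transcripts, and both held all 23. It was 48 with a threshold of -0.4, 8 with -0.8 and 13 with a minimum of 10 CPM. With libraries thinned to the lowest total it was 22, of which 15 were among the 23. With a 12 h library left out, fewer conditions apply, and it was 28 to 60, with 17 to 22 of the 23. By 12 h library, it was 37 and 42 without soft plain replicates 1 and 2, 46 and 37 without soft RGD replicates 1 and 2, 60 without stiff plain replicate 2 and 45 without stiff RGD replicate 1. The median 12 h ratio of the 23 was -0.887 to -0.666 under other scalings and pseudocounts, added after seeing the data, and the shift of all tested transcripts was -0.0053 with TMM. For RGD at 12 h, ENSRNOT00000077799.1 ranged from -0.112 to 2.94 over the fits that left out a library, and reversed (-0.112) without stiff plain replicate 2, in which it had 0 counts. For stiffness at 48 h, ENSRNOT00000030919.5 (-0.0136) ranged from -0.584 to 0.303 with a library left out and reversed without soft plain replicate 1 (0.087), soft RGD replicate 2 (0.141), stiff plain replicate 2 (0.155) or stiff RGD replicate 1 (0.303) at 48 h.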
